A study of Mus musculus with 27 samples.

Results

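The genes described here are 10 inflammatory genes of the interleukin-1, tumour necrosis factor and NF-kappaB system, taken by symbol from the 24293 gene symbols in each RNA table. They are the cytokines Il1a, Il1b, Il6, Il18 and Tnf, the receptor antagonist Il1rn, the feedback inhibitors Nfkbia and Tnfaip3, the inflammasome sensor Nlrp3 and the secreted protein gene Lcn2. All 10 passed the filter on low values. The choice was made by name and role, although earlier results of these data were known. The samples come from a study of mouse microglia, the resident macrophages of the brain, during their conversion into induced neuronal cells.

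Every group was wild-type C57BL/6 from cortex at postnatal day 1, and RNA was sequenced from 3 libraries in each of 5 groups. Control microglia at day 2 and day 7 are labelled only as controls, with no medium given. ND1 microglia at day 2 and day 7 received 2 lentiviruses, 1 carrying ND1 and 1 carrying M2rtTA, the activator through which doxycycline switches on such constructs. Infection took place in microglia medium with polybrene, after which the cells were kept in a Neurobasal and B27 medium with BDNF, GDNF, NT3 and antibiotics. Doxycycline was given a single time. The fifth group held cortical neurons cultured in Neurobasal with B27, for which the labels give no day. The labels do not spell out ND1, do not describe a control virus, and do not say whether the 3 libraries of a group are separate cultures, so p-values measure only the spread between these libraries. ND1 came together with virus, doxycycline and a neuronal medium, and as far as the labels go the effects of these cannot be told apart.

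Interleukin-1 alpha and beta and tumour necrosis factor bind receptors on responding cells, and their adaptors and kinases release NF-kappaB from its IkappaB inhibitors. NF-kappaB then turns on cytokine genes together with its own brakes, among them Nfkbia and Tnfaip3. In microglia the interleukin-1 beta and interleukin-18 precursors are cut by caspase-1 in inflammasomes such as the one built on Nlrp3.

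Levels are FPKM (sequenced fragments per unit of transcript length and of library size), which correct for transcript length, so levels of different genes can be set side by side. FPKM sums ran from 429013 to 739846 per library. Judged by the smallest spacing between FPKM values, 1 read was worth 0.727 to 1.13 times its worth in the first control day 2 library. This worth was 0.727 to 0.807 in ND1 day 7 and 0.737 to 0.835 in neurons, but 0.933 to 1.13 in control libraries. A lower worth means more reads, so depth differed between groups. No 2 libraries were identical. The 18 pan-myeloid markers (such as Csf1r, Tyrobp and Laptm5) summed to 18738 to 19112 FPKM in control day 2, 18419 to 19900 in control day 7, 14404 to 15756 in ND1 day 2, 974 to 1290 in ND1 day 7 and 94.1 to 109 in neurons. The 12 homeostatic microglia markers summed to 3516 to 3609 FPKM in control day 2 and 7305 to 7515 in control day 7. They summed to 2784 to 3063 FPKM in ND1 day 2, 294 to 393 in ND1 day 7 and 16.3 to 17.7 in neurons. C1qa was the highest of them in control cells, at means of 2540 FPKM at day 2 and 4904 at day 7. Of the 12, Siglech and Gpr34 were on average under 1 FPKM in the control cells of both days, and Tmem119 was so at day 2. The 10 neuron markers summed to 22.3 to 29.9 FPKM in control libraries, 700 to 868 in ND1 day 2, 4337 to 4343 in ND1 day 7 and 3368 to 3671 in neurons. In such bulk RNA, fewer microglia and less RNA of a gene per cell cannot be told apart.

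The DNA just before the start sites shows which of these genes carry letters of the kind NF-kappaB binds. The 250 bases before each RefSeq start site (build GRCm38.p6) were searched on both strands for a loose pattern, GGG and CC separated by any 5 bases, and for the narrower kappaB consensus, every match of which is also a match of the first. Of the 10 genes, 7 held the loose pattern before at least 1 of their 14 start sites, against 45.8% of all 32851 promoters. The narrower consensus lay before 4 genes (Il6, Nfkbia, Tnfaip3 and Nlrp3), against 3.9% of all promoters. Some of these genes have several start sites and so more chances of a match. A match is a description of the letters and not a measured binding site. The first 5 genes with a match are shown because they include the antagonist, cytokines and feedback inhibitors whose RNA levels follow. Lcn2, which also holds a match, and Il1b, which holds none, were added after their values were seen because the surroundings of their start sites were highly methylated. Each is printed 5′ to 3′ on the gene's strand, with matches of the loose pattern on either strand in capitals. Il1rn is shown at the first of its 3 starts and Tnfaip3 at its second, which lies farthest upstream.
Il1rn, chr2:24336610-24336859, plus strand: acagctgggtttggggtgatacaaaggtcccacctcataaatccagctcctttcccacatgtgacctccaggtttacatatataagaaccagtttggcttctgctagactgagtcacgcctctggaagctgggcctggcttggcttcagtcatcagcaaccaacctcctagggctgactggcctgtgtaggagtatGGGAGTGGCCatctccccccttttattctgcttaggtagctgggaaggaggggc
Il6, chr5:30012864-30013113, plus strand: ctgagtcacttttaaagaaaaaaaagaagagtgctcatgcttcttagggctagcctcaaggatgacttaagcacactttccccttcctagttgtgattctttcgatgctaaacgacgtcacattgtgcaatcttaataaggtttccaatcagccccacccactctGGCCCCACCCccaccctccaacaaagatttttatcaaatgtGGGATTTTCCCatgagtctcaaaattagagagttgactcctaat
Tnf, chr17:35202008-35202257, minus strand: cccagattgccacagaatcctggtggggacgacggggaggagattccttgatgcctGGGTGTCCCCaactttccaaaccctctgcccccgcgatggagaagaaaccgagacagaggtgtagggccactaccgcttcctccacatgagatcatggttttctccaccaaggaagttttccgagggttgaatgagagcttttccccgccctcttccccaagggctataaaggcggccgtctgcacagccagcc
Nfkbia, chr12:55492648-55492897, minus strand: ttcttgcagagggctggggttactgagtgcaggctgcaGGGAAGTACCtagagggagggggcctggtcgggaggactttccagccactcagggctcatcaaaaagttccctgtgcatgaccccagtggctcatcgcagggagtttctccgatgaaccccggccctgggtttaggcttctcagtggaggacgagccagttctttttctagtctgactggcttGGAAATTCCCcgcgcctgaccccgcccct
Tnfaip3, chr10:19015411-19015660, minus strand: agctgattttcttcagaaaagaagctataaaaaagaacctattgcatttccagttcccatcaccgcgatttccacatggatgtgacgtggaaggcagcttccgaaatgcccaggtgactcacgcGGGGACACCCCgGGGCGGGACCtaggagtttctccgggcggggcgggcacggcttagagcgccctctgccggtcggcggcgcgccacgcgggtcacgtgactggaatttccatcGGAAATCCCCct
Il1b, chr2:129371140-129371389, minus strand: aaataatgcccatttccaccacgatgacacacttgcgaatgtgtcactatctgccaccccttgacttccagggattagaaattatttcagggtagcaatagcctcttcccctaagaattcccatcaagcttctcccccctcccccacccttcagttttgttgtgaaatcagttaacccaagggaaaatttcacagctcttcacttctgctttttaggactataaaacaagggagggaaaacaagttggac
Lcn2, chr2:32387740-32387989, minus strand: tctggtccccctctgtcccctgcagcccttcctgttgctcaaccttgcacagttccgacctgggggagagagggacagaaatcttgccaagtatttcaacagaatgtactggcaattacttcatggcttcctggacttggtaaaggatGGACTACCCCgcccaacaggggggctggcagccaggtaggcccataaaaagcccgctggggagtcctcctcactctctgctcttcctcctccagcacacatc
In Il6 the match GGGATTTTCC lay 44 to 35 bases before the start. In Nfkbia the match GGAAATTCCC, read here on the gene's strand, lay 29 to 20 bases before it. Tnfaip3 held GGAAATCCCC 12 to 3 bases and GGGACACCCC 125 to 116 bases before its start.

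The cytokine genes were highest in control microglia at day 2, although Il6 was weak even there. They were low in ND1 cells at day 7, and the order of the other groups differed between genes. Il1a (chromosome 2, 129299609 to 129310186) encodes interleukin-1 alpha, which can act as a released alarm signal. Its FPKM was 68.5, 71.3 and 68.9 in control day 2 and 42.7, 46.1 and 44.9 in ND1 day 2. It was 27.0, 24.6 and 24.9 in control day 7, 3.99, 2.86 and 3.24 in ND1 day 7, and 0.321, 0.323 and 0.228 in neurons. No group overlapped another, and ND1 cells stood below control cells of the same day on both days. Il1b (chromosome 2, 129364569 to 129371164) encodes the secreted, caspase-1-dependent form. It was at 50.4, 48.4 and 52.4 FPKM in control day 2, 24.0, 24.1 and 22.0 in ND1 day 2, and 3.57, 3.60 and 3.14 in control day 7. In ND1 day 7 it was at 0.162, 0.125 and 0.0646 and in neurons at 0.395, 0.403 and 0.383. Every ND1 day 7 library thus lay below every neuron library, the only cytokine beside Il18 in that order. If the smallest step between values is 1 read, the ND1 day 7 values rest on 7, 6 and 3 reads and the neuron values on 18, 19 and 16.

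Tnf (chromosome 17, 35199367 to 35202007), which encodes tumour necrosis factor, was the cytokine gene with the smallest reduction at day 2. Its FPKM was 28.1, 25.6 and 30.3 in control day 2, 21.4, 21.9 and 21.0 in ND1 day 2, and 16.6, 15.9 and 16.2 in control day 7. It was 1.52, 0.874 and 1.13 in ND1 day 7 and 0.0511, 0.0509 and 0.0192 in neurons. All 5 groups were separate. Il18 (chromosome 9, 50554700 to 50581841), which encodes a caspase-1 substrate that promotes interferon-gamma production, was the cytokine gene most readily seen in neurons. Its FPKM was 42.1, 46.0 and 43.5 in control day 2, 16.9, 20.7 and 21.4 in ND1 day 2, and 25.96, 21.0 and 25.2 in control day 7. ND1 day 7 held 4.94, 4.22 and 4.82, below the neurons' 11.2, 12.1 and 12.99. ND1 day 2 and control day 7 overlapped, and the other neighbours in the order did not.

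Il6 (chromosome 5, 30013114 to 30019975), the gene of a cytokine that signals through gp130, was weak throughout. Its FPKM was 3.32, 2.83 and 4.19 in control day 2, 1.15, 0.889 and 1.06 in ND1 day 2, and 0.470, 0.372 and 0.329 in ND1 day 7. It was listed at 0, 0 and 0.204 in control day 7 and at 0.112, 0.0539 and 0.152 in neurons, and these last groups overlapped. By the spacing of values, ND1 day 7 rests on 16, 14 and 12 reads and control day 7 on 0, 0 and 6. The Il6 changes that involve control day 7 below are fitted values on the log2(FPKM + 1) scale that depend on the pseudocount, and no percentage of that group is given.

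**Figure D1:**
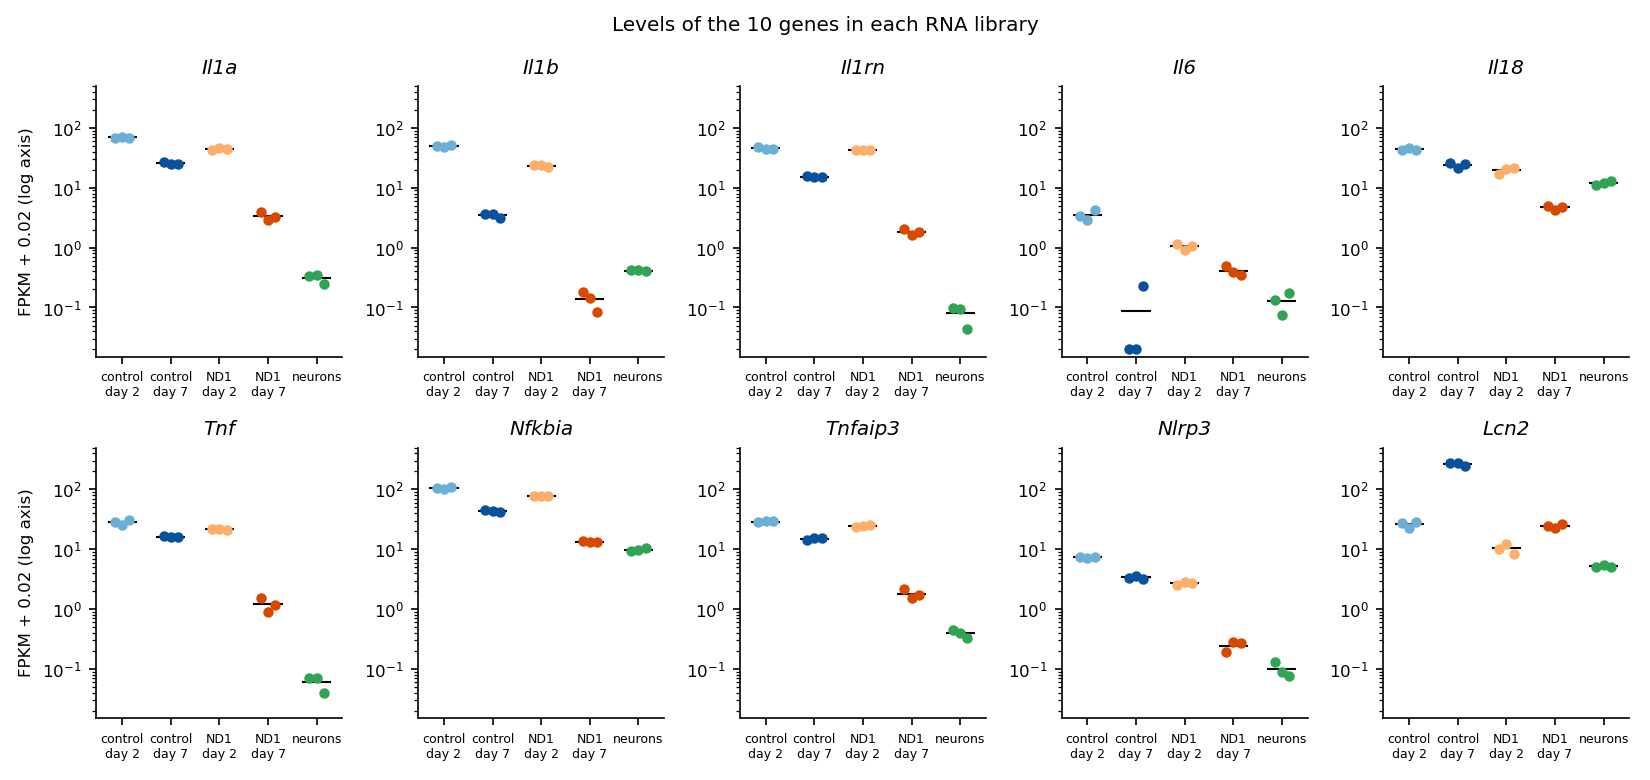
FPKM of the 10 genes in each of the 15 RNA libraries on a log axis, with a small constant added so that a value of 0 can be drawn; points are libraries and lines are group means. Il1a, Il1rn, Tnf, Nfkbia and Tnfaip3 step down in the order control day 2, ND1 day 2, control day 7, ND1 day 7 and neurons, while Lcn2 is highest in control day 7 (241 to 273 FPKM).

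The antagonist did not follow its ligands at day 2. Il1rn (chromosome 2, 24336860 to 24351491) encodes the protein that occupies the interleukin-1 receptor without signalling, and its FPKM pools secreted and intracellular forms. It was at 47.2, 45.0 and 45.1 FPKM in control day 2 and 43.4, 43.4 and 42.4 in ND1 day 2. It was at 15.5, 14.9 and 14.9 in control day 7, at 2.02, 1.60 and 1.79 in ND1 day 7, and at 0.0783, 0.0755 and 0.0244 in neurons. The 5 groups were separate, although those of day 2 lay within a few FPKM of each other.

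Both feedback inhibitors were highest in control day 2, and in ND1 day 2 they stood nearer to control than most cytokine genes. Nfkbia (chromosome 12, 55489409 to 55492647) encodes IkappaB alpha, which holds NF-kappaB in the cytoplasm, and had the highest levels of the 10 genes at day 2. Its FPKM was 107, 102 and 109 in control day 2, 76.8, 78.7 and 78.7 in ND1 day 2, and 44.4, 43.6 and 42.3 in control day 7. ND1 day 7 held 13.5, 12.96 and 13.1 and neurons 9.17, 9.67 and 10.4, so this gene remained above 9 FPKM in every library. Tnfaip3 (chromosome 10, 19000910 to 19015410) encodes A20, a ubiquitin-editing enzyme that dampens receptor signalling. It was at 28.3, 29.5 and 29.2 FPKM in control day 2, 23.7, 24.3 and 25.2 in ND1 day 2, and 14.2, 15.5 and 15.3 in control day 7. In ND1 day 7 it was at 2.15, 1.503 and 1.68, and in neurons at 0.433, 0.383 and 0.312. None of its groups overlapped.

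Nlrp3 (chromosome 11, 59541569 to 59566955), the sensor that assembles the inflammasome, was at 7.33, 7.11 and 7.40 FPKM in control day 2. It was at 3.35, 3.61 and 3.11 in control day 7 and lower still, at 2.48, 2.84 and 2.75, in ND1 day 2. In ND1 day 7 it was at 0.170, 0.258 and 0.247, which by the spacing of values is 9, 15 and 14 reads, and in neurons at 0.110, 0.0685 and 0.0563. Its groups were separate, and it is 1 of 3 genes (with Il18 and Lcn2, by mean level) whose ND1 day 2 cells stood below control day 7.

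Lcn2 (chromosome 2, 32384637 to 32387739) encodes lipocalin 2, a secreted protein that binds bacterial siderophores and is a known NF-kappaB target. It was the gene that went up between the days. Its FPKM was 27.0, 22.5 and 28.3 in control day 2 and 273, 270.3 and 241 in control day 7. In ND1 cells it was 10.2, 12.3 and 8.34 at day 2 and 24.7, 22.3 and 26.04 at day 7, and in neurons 4.98, 5.50 and 4.97. Control day 2 and ND1 day 7 overlapped, and control day 7 stood far above all other groups.

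The first comparison asks how far these genes differed after 2 days of ND1. A gene was called at a limma adjusted p (Benjamini-Hochberg, over 13602 tested genes) under 0.05 with a log2 change of FPKM + 1 of at least 1 in size. At day 2, 5 of the 10 genes were called lower in ND1 cells and 0 higher, against a background of 0.618% of all tested genes called lower and 9.09% called higher. These were Lcn2, Nlrp3, Il6, Il18 and Il1b. Lcn2 fell by 1.26 ± 0.114 (SE) on the log2 scale, with an adjusted p of 3.77e-07, and Nlrp3 by 1.17 ± 0.053 (2.51e-10). Il6 fell by 1.12 ± 0.101 (3.81e-07), Il18 by 1.12 ± 0.0939 (1.7e-07) and Il1b by 1.08 ± 0.0547 (8.16e-10). The other 5 stayed inside the fold limit, with log2 changes of -0.63 for Il1a, -0.43 for Nfkbia, -0.37 for Tnf and -0.24 for Tnfaip3, at adjusted p from 5.38e-06 to 0.00786. Il1rn was at -0.08 ± 0.0497 (adjusted p = 0.146). All 3 ND1 libraries lay below all 3 control libraries for 10 of 10 genes, beside 42.4% of all tested genes. The median log2 change of the 10 genes was -0.854, and that of all tested genes was -0.0398. With quantile normalization, or with every library rescaled to the same FPKM sum, 3 genes were called in place of 5, because Il1b and Il18 came just inside the fold limit.

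Set as a share of the control mean, ND1 day 2 cells held 94.1% of Il1rn and 84.1% of Tnfaip3, but 46.3% of Il1b, 44.9% of Il18, 39.7% of Lcn2, 36.9% of Nlrp3 and 29.9% of Il6. Tnf stood at 76.6%, Nfkbia at 73.8% and Il1a at 64.1%. The 18 pan-myeloid markers had a median of 72.8% and a range of 63.1% to 99.4%. Tnf and Nfkbia thus lay near the pan-myeloid median, and Il1b, Il6, Il18, Nlrp3 and Lcn2 lay under the lowest pan-myeloid marker. From the lowest ND1 over the highest control library to the reverse, Il1b ran from 42.0% to 49.8% and Nlrp3 from 33.5% to 39.9%. Lcn2 ran more widely, from 29.5% to 54.9%.

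The mean log2(FPKM + 1) of the pan-myeloid markers was also subtracted within each library. After this, 0 of the 10 genes passed the threshold at day 2 with limma, which does not show that the groups were equal. The background was 0.0515% of all tested genes called lower and 15% called higher. The log2 changes relative to these markers were -0.86 for Lcn2, -0.76 for Nlrp3, -0.72 for Il6 and Il18, -0.67 for Il1b, -0.23 for Il1a, -0.03 for Nfkbia, 0.04 for Tnf, 0.16 for Tnfaip3 and 0.32 for Il1rn. The sign for Tnf turned under quantile normalization and without control day 2 replicate 2. With a pseudocount of 0.1, Il6 passed at -1.23, and with quantile normalization Il6 passed at -1.33 and Nlrp3 at -1.16. At day 7 the same subtraction put 8 of the 10 genes higher, but 93.3% of all tested genes were also called higher and 0.0882% lower. Subtracting the strong fall of the markers moves every gene upward, so this count does not set the 10 genes apart.

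**Figure D2:**
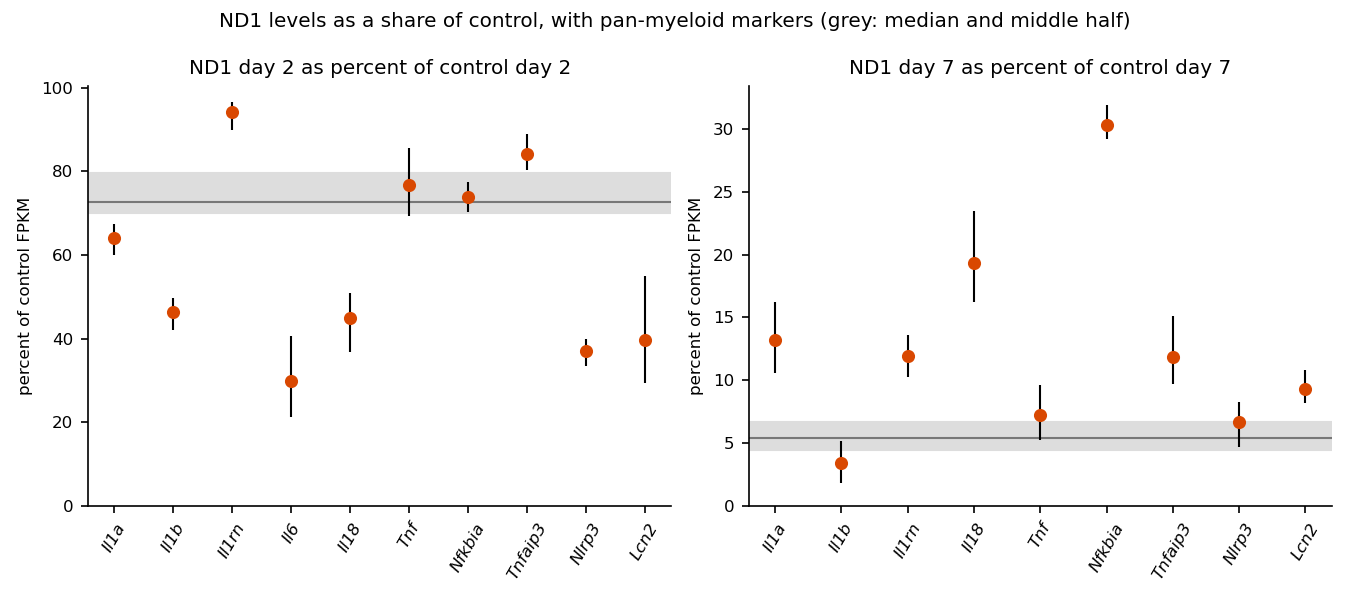
ND1 FPKM as a percentage of control FPKM at day 2 (left) and day 7 (right); points are ratios of group means, vertical lines run from the lowest ND1 over the highest control library to the highest over the lowest, and the grey line and band are the median and interquartile range of 18 pan-myeloid markers. At day 2 Il6, Nlrp3, Lcn2, Il18, Il1b and Il1a lie below the band, whereas at day 7 Nfkbia (30.3%) and Il18 (19.4%) lie far above it. The whole lines of Il1a, Il1rn, Tnfaip3 and Lcn2 also lie above the band at day 7. Il6 is left out at day 7 because 2 control libraries list it at 0.

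By day 7, 9 of the 10 genes were lower in ND1 cells than in control cells, and 0 were higher, with 24.5% of all tested genes called lower and 25.7% higher. The log2 changes were -3.37 for Lcn2, -2.995 for Tnf, -2.61 for Il1a, -2.53 for Il1rn, -2.53 for Tnfaip3, -2.14 for Il18, -1.99 for Il1b, -1.83 for Nlrp3 and -1.65 for Nfkbia, with limma adjusted p from 3.04e-15 (Il1rn) to 2.05e-11 (Il18). Il6 was not called, at 0.38 ± 0.101 (adjusted p = 0.00266), with its 3 ND1 libraries above its 3 control libraries. With a pseudocount of 0.1 in place of 1 it passed, at 1.75, from the few reads given above. For the other 9 genes every ND1 library lay below every control library, where 44.3% of all tested genes did so and 46.6% lay the other way. The median log2 change of the 10 genes was -2.335, beside 0.0394 for all tested genes.

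The log2(FPKM + 1) scale shortens the fall of a gene that ends near 0, and shares of the control mean order the genes differently. ND1 day 7 cells held 3.41% of control Il1b, 6.70% of Nlrp3, 7.25% of Tnf and 9.31% of Lcn2. They held 11.9% of Il1rn and of Tnfaip3, 13.2% of Il1a, 19.4% of Il18 and 30.3% of Nfkbia. The pan-myeloid markers had a median of 5.44%, with an interquartile range from 4.41% to 6.70% and a range from 3.73% to 70.3%. The highest share was that of Coro1a, the 1 marker of the 18 not called lower, which was also at a mean of 66.7 FPKM in neurons. Il1b was the gene below that median, and its library extremes of 1.79% to 5.16% reach into that interquartile range. Nlrp3 and Tnf overlapped it too. Nfkbia, at 29.2% to 31.9% over library extremes, and Il18, at 16.2% to 23.5%, stood well above. Il1a, Il1rn, Tnfaip3 and Lcn2 also stood wholly above it, with lowest extremes of 10.6%, 10.3%, 9.72% and 8.17%. Nfkbia and Il18 were the members with the highest RNA in neurons, at 9.17 to 10.4 and 11.2 to 12.99 FPKM. Lcn2 was at 4.97 to 5.50 FPKM there, and Il1a, Il1rn and Tnfaip3 reached at most 0.433 FPKM. A link of these neuron levels with the shares of control was not tested.

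**Figure D3:**
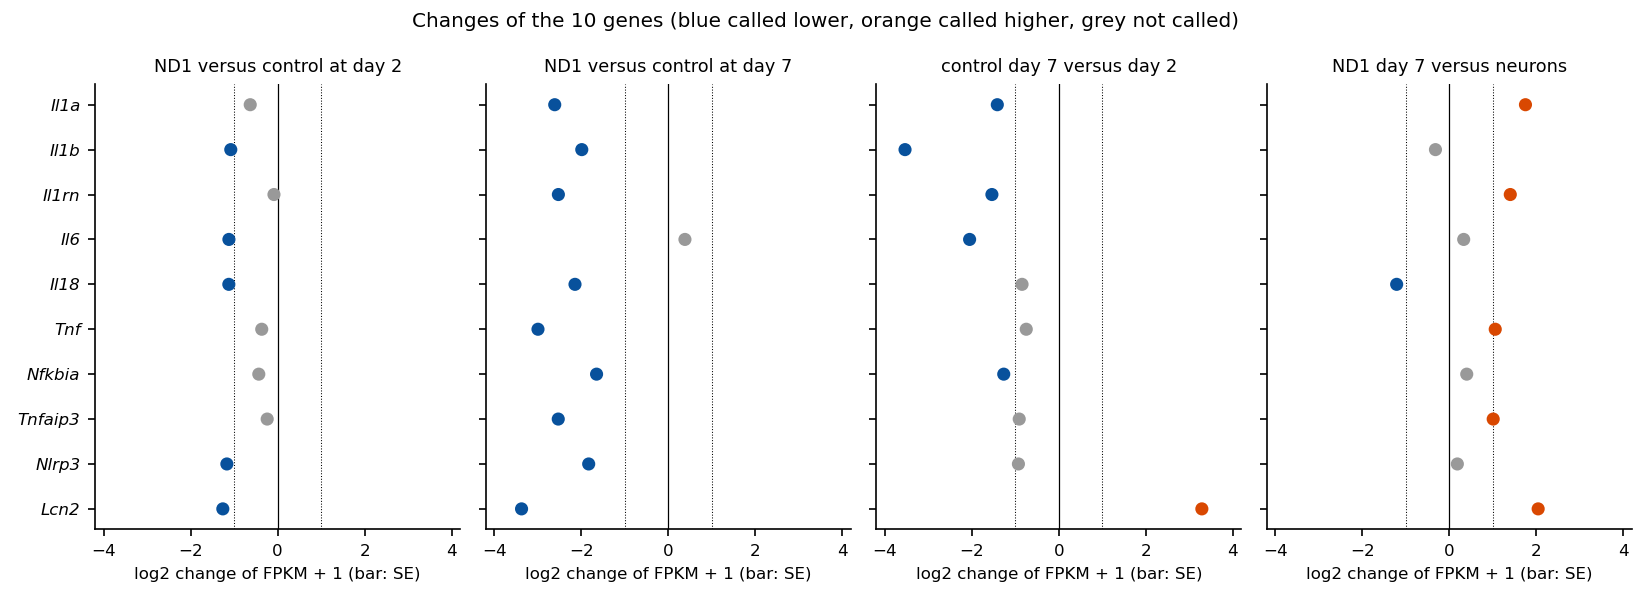
Log2 changes of FPKM + 1 for the 10 genes in 4 comparisons, with standard errors mostly hidden by the points and dotted lines at the fold limit; blue genes were called lower, orange genes higher and grey genes not called. At day 2 the ND1 changes lie between -1.26 and -0.08, and at day 7 9 genes lie between -3.37 and -1.65 with Il6 at 0.38.

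Control cells also changed between the days, without ND1. From day 2 to day 7, 5 genes were called lower and 1 higher, against backgrounds of 3.79% and 3.9%. The log2 changes were -3.54 for Il1b (adjusted p = 2.35e-14), -2.05 for Il6 (8.77e-10), -1.54 for Il1rn (1.57e-11), -1.41 for Il1a (1.66e-09) and -1.27 for Nfkbia (2.04e-11). Nlrp3, Tnfaip3, Il18 and Tnf were at -0.93, -0.91, -0.85 and -0.75, inside the fold limit, although all their day 7 libraries lay below their day 2 libraries. Nlrp3 passed with a pseudocount of 0.1 (-1.097) and after rescaling (-1.03). In all, the day 7 libraries lay wholly below those of day 2 for 9 genes and above for 1, beside 33.8% and 36.2% of all tested genes. Control day 7 held 6.82% of the day 2 level of Il1b, 33.0% of Il1rn, 36.7% of Il1a, 41.0% of Nfkbia, 46.1% of Nlrp3, 51.6% of Tnfaip3, 54.8% of Il18 and 58.0% of Tnf. The pan-myeloid markers had a median of 110% in the same ratio. This comparison and that of ND1 with control at day 7 share the control day 7 libraries, so a low control level at day 7 enters both.

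Lcn2 was the gene that rose in control cells, by 3.29 on the log2 scale (adjusted p = 2.78e-11), to 1009% of its day 2 level. Markers of other cells moved in the same libraries. Astrocyte markers summed to 19.8 to 21.4 FPKM in control day 2 and 76.1 to 80.1 in control day 7, and 6 of 8 tested were called higher. Gfap, an astrocyte filament gene, went from 2.88 to 25.7 FPKM on average. Fibroblast and mural markers summed to 1.18 to 2.35 FPKM at day 2 and 25.6 to 35.3 at day 7, with 3 of 7 tested called higher and Rgs5 and Vtn at 0 in every control day 2 library. Neutrophil and monocyte markers summed to 27.9 to 29.9 FPKM at day 2 and 13.6 to 14.6 at day 7, with Mpo and Retnlg at 0 in all control libraries of both days. The part of these cells in the Lcn2 rise was not tested. In ND1 day 7 cells, where Lcn2 was at 22.3 to 26.04 FPKM, fibroblast and mural markers summed to 37.2 to 40.1 FPKM and astrocyte markers to 38.7 to 39.7.

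Within ND1 cells, 8 genes were called lower and 1 higher at day 7 than at day 2, against backgrounds of 21.1% and 22.6%. The log2 changes were -4.45 for Il1b, -3.98 for Il1rn, -3.39 for Il1a, -3.38 for Tnf, -3.20 for Tnfaip3, -2.48 for Nfkbia, -1.87 for Il18 and -1.59 for Nlrp3. Lcn2 rose by 1.18 (adjusted p = 2.12e-07). Il6 was at -0.55, inside the fold limit, and passed at -1.21 (adjusted p = 0.00563) with a pseudocount of 0.1. The ranges of the days did not overlap for any of the 10 genes, with 9 lower and 1 higher at day 7, where 42.3% and 49.8% of all tested genes were so.

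The difference between the ND1 effects of the 2 days was tested as an interaction. It was called negative for 7 genes and positive for 1, against backgrounds of 20.8% and 20.5%. The gap between ND1 and control cells thus grew from day 2 to day 7 for Tnf (-2.63 on the log2 scale), Il1rn (-2.44), Tnfaip3 (-2.29), Lcn2 (-2.11), Il1a (-1.98), Nfkbia (-1.21) and Il18 (-1.02). Il1rn and Tnfaip3 were among those nearest to control at day 2. For Il1b and Nlrp3 the difference of -0.91 and -0.66 did not pass, while it did at -2.94 and -2.01 with a pseudocount of 0.1, and for Il1b also under quantile normalization (-1.25) and rescaling (-1.29). The calls for Nfkbia and Il18 were lost when libraries were rescaled to the same FPKM sum, at -0.775 and -0.65. That for Il18 was also lost without any 1 of 6 libraries (control day 2 replicate 1, control day 7 replicates 1 and 3, ND1 day 2 replicates 2 and 3, ND1 day 7 replicate 2), at values from -0.993 to -0.96. Il6 was positive (1.505), with an ND1 effect of -1.12 at day 2 and 0.38 at day 7, where its control level was near 0.

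The balance of the antagonist and interleukin-1 beta was taken in each library as the ratio of Il1rn to Il1b, with 0.1 FPKM added to both. It was 0.937, 0.930 and 0.861 in control day 2 and 1.81, 1.80 and 1.92 in ND1 day 2. It was 4.26, 4.04 and 4.64 in control day 7 and 8.09, 7.53 and 11.5 in ND1 day 7. Il1rn thus stood close to Il1b in control day 2 and above it in the other 3 microglia groups, with no overlap between groups. Against the other ligand gene, Il1a, the mean of Il1rn was lower in each microglia group, at 45.8 against 69.5 FPKM in control day 2, 43.1 against 44.6 in ND1 day 2, 15.1 against 25.5 in control day 7 and 1.80 against 3.36 in ND1 day 7. In ND1 day 2 the libraries of these 2 genes overlapped. On the log2 scale ND1 exceeded control by 1.02 at day 2 (0.882 ± 0.0542 against -0.138 ± 0.0680, SD, n = 3; exact permutation p = 0.1, two-sided). At day 7 it did so by 1.04 (3.15 ± 0.325 against 2.11 ± 0.101, SD, n = 3; exact permutation p = 0.1, two-sided). Control cells gained 2.245 between the days in the same terms (exact permutation p = 0.1, two-sided). With 3 libraries against 3, 0.1 is the smallest p possible. The day 7 difference rests on 3 to 7 reads of Il1b per ND1 library and turned to -0.537 when 1 FPKM was added in place of 0.1. In neurons both genes were near 0 and the ratio was 0.360, 0.349 and 0.258.

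**Figure D4:**
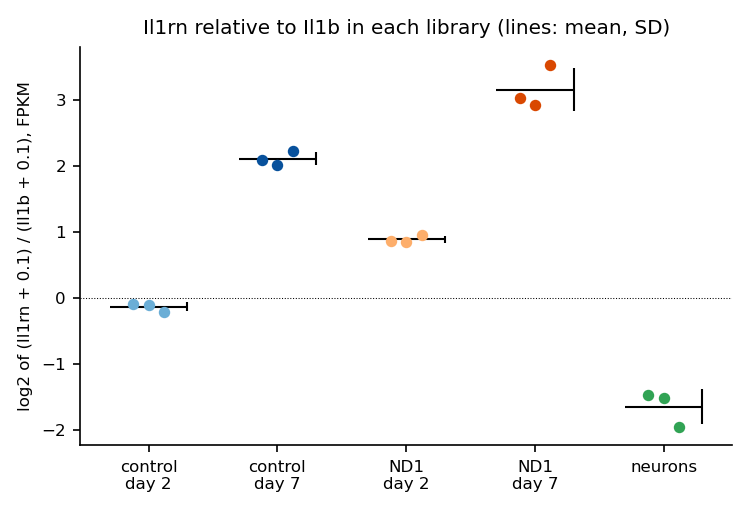
Log2 ratio of Il1rn to Il1b FPKM, with 0.1 added to each, in the 15 RNA libraries; points are libraries, horizontal lines group means and vertical lines SD. The mean is -0.138 in control day 2, 0.882 in ND1 day 2, 2.11 in control day 7 and 3.15 in ND1 day 7.

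Cultured neurons give the level of these genes in cells with few myeloid transcripts. Against control day 7 microglia, neurons were lower for 8 of the 10 genes (background 25.3%) and higher for 0 (28.1%), with Lcn2 at -5.42, Il1a at -4.36, Tnf at -4.05 and Il1rn at -3.93 on the log2 scale. Il18 was at -0.93, inside the fold limit, and Il6 at 0.05 (adjusted p = 0.614). Without control day 7 replicate 2, Il18 passed at -1.02. Neuron libraries lay wholly below control day 7 libraries for 9 genes, beside 42.9% of all tested genes (46.3% above). ND1 day 7 cells were in turn above neurons for 5 genes (background 7.29%) and below for 1 (6.24%). Lcn2 was higher by 2.04, Il1a by 1.75, Il1rn by 1.40, Tnf by 1.055 and Tnfaip3 by 1.01. Il18 was 1.21 lower in ND1 day 7 cells than in neurons (log2 change -1.21, adjusted p = 4.71e-08). Nfkbia (0.40), Il6 (0.33), Nlrp3 (0.18) and Il1b (-0.32) were inside the fold limit, which does not show that the groups were equal. With a pseudocount of 0.1, Il1b passed at -1.21 (adjusted p = 1.48e-06) and Il6 at 1.27 (0.00563). ND1 day 7 libraries lay wholly above neuron libraries for 8 genes and below for 2, beside 43.4% and 34.7% of all tested genes. The calls of Tnf and Tnfaip3 were lost under quantile normalization, at 0.667 and 0.712, and without ND1 day 7 replicate 1, at 0.943 and 0.915, that of Tnfaip3 also without neuron replicate 3, at 0.974. The pan-myeloid sum in ND1 day 7 cells, 974 to 1290 FPKM, was likewise above that of neurons, and its part in these differences was not tested.

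Other genes of the pathway were followed in 9 lists. Their counts stand beside 0.618% of all tested genes called lower at day 2 and 24.5% at day 7. The pan-myeloid markers fell with them at day 7, with 17 of 18 called lower and a median log2 change of -4.16, beyond the median of each of these 9 lists. The part of this fall in the counts was not tested. The NF-kappaB subunits had 0 of 5 called at day 2, while at day 7 5 of 5 were lower in ND1 cells (median -2.56). The largest falls were those of Nfkb1 (34.6 to 3.86 FPKM, -2.88 on the log2 scale), Nfkb2 (21.9 to 2.45, -2.72) and Relb (18.4 to 2.29, -2.56). In control cells Nfkb2 and Relb, of the non-canonical arm, also fell from day 2 to day 7 (-1.56 and -1.36). Of 11 further IkappaB proteins and NF-kappaB inhibitors, 0 were called at day 2 and 9 were lower at day 7, led by Nfkbiz (-3.05), Zc3h12a (-2.74), which encodes an RNase that degrades cytokine transcripts, and Bcl3 (-2.56). The median of this list at day 7 was -1.855, with the background of all tested genes at 0.0394.

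Among 22 IKK subunits and receptor adaptors, Irak3, a brake on interleukin-1 receptor signalling, was the 1 called at day 2 (25.04 to 10.7 FPKM, -1.16). At day 7, 14 were lower, led by the adaptor Myd88 (75.6 to 4.09 FPKM, -3.92) and the kinases Irak4 (-3.41) and Ripk1 (-3.32), and 1, Tab3, was higher (2.30 to 8.51 FPKM, 1.53). Of 11 interleukin-1 family and receptor genes 3 passed the filter. The interleukin-1 receptor gene Il1r1 did not, at means from 0.105 to 0.527 FPKM over the 5 groups. Il18bp, whose product neutralises interleukin-18, was not called at day 2 and was lower at day 7 (40.0 to 3.13 FPKM, -3.30). It had also fallen in control cells between the days (-2.11).

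Genes of the tumour necrosis factor family were called at day 7 and not at day 2. Of 11 tested ligands and receptors, 0 were called at day 2. Their median log2 change then was already -0.508, beside -0.457 for the pan-myeloid markers and -0.0398 for all tested genes. At day 7, 7 were called lower (median -2.04). Tnfrsf1b went from 162 in control to 7.04 FPKM in ND1 cells (-4.35), Tnfsf12 changed by -3.76 and Tnfrsf1a by -3.69. In the interleukin-6 family, Cntfr, the receptor subunit for ciliary neurotrophic factor, rose at both days (1.04 and 2.69), whereas the interleukin-6 receptor gene Il6ra (26.6 to 1.55 FPKM, -3.44) and the ligand gene Osm (-2.42) were among 4 of 7 lower at day 7. All 12 tested inflammasome and processing genes were lower at day 7 (median -3.36), led by the adaptor Pycard (-3.79), the pore former Gsdmd (-3.76) and Casp1 (132 to 9.11 FPKM, -3.72), while 0 of 12 were called at day 2. Of these, 8 were called higher in ND1 day 7 cells than in neurons, with Casp1 at 2.38, against 7.29% of all tested genes. So were 17 of 18 pan-myeloid markers, with a median of 3.92 beside 1.11 for this list.

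Of 22 further NF-kappaB target genes, 1 was lower at day 2, the stress gene Gadd45b (132 to 56.2 FPKM, -1.22). At day 7, 16 were lower and 1 higher. Cd83 (-4.57) and Bcl2a1b (-4.12) led the falls, the latter with near-identical copies among which reads may be split. The 1 that rose, Marcksl1, a cytoskeletal regulator, was at 42.1 FPKM in control day 7, 1016 in ND1 day 7 and 985 in neurons. In control cells 10 of the 22 were called lower at day 7 than at day 2 and 0 higher, against backgrounds of 3.79% and 3.9%. Among the 10 were the acute-phase gene Saa3 (1822 to 299 FPKM, -2.59), Icam1 (-1.93) and Sod2 (-1.87). The other 12 were inside the fold limit in both directions, from -0.759 (Birc2) to 0.688 (Cd83). Lcn2 thus went up while the 10 called targets went down in the same libraries. Of 11 anti-inflammatory genes, 9 were lower at day 7, led by Il10ra (-4.27), Il10rb (-4.23) and Tgfb1 (-4.11). At day 2 the 1 called was Tgfbr1, which was higher (1.14).

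The genes whose profile was most like each member were taken by Pearson's r of log2(FPKM + 1) over the 15 libraries. These r describe 5 groups of libraries that share their depth and cell content, and carry no test. Tnfaip3 was most like Birc3 (r = 0.9994), at means of 48.3 FPKM in control day 2, 23.1 in control day 7, 43.6 in ND1 day 2, 1.64 in ND1 day 7 and 0.140 in neurons. Tnf was most like Nmi (0.9991), Nfkbia like Pilra (0.9991), Il1rn like H2-Q8 (0.9989), Il1a like Phf11d (0.9987) and Il1b like Rbpms (0.9982). The lowest leading values were those of Il6 with Naa25 (0.9832) and Lcn2 with Clspn (0.9851). Clspn was weak, at 0.459 FPKM in control day 2 and 1.22 in control day 7.

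CpG methylation within 1000 bases of each start site was compared between a control and an ND1 library of unstated day. With 1 library in each arm and no read depth in the files, there is no test and no interval. The start regions differed widely among the genes, from 5.08% to 90.0% in control, and by at most 7.92 percentage points between the libraries. Nfkbia (5.08% in control over 109 CpGs, 4.16% in ND1 over 116) and the upstream start of Tnfaip3 (5.67% and 5.77%, 86 CpGs each) were nearly unmethylated, both in CpG-rich DNA. Nlrp3 (13.1% and 10.9% at its second start), Il1a (14.0% and 19.6%), Tnf (20.4% and 19.6%), Il18 (24.9% and 32.9%) and Il6 (29.8% and 26.9%) were low to middling. Il1b (83.2% over 13 CpGs and 84.7% over 14) and Lcn2 (82.7% over 21 and 82.4% over 22) were highly methylated in both. So were the first start of Il1rn (90.0% and 96.0%, 9 CpGs each) and the first start of Tnfaip3 (78.3% over 21 CpGs and 81.3% over 20), which lies inside the gene. The control median over 30576 start sites with at least 5 CpGs was 32.9%, with a interquartile range from 6.16% to 74.6%. Single CpGs near these starts were lower than the rest. Il1b RNA was high in control cells at day 2 and Lcn2 RNA at day 7, and the control bisulfite library, of unstated day, cannot be paired with either.

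The ND1 minus control differences ran from -2.98 to 7.92 percentage points over the 14 start sites. Those of Il18 (7.92), the first Il1rn start (6.01, over 9 CpGs) and Il1a (5.61, over 14) lay beyond the 95th percentile of all start sites, 4.93, and the other 11 lay between the 5th percentile, -4.32, and that value. These differences depended on the window. For Il18 the difference was 3.44 when only CpGs listed in both libraries were used and 1.70 within 500 bases of the start, and for Il1a it was 3.79 within 500 bases. In that narrower window Lcn2 was at -6.67 over 7 CpGs and Il6 at -5.27 over 10 and 11, while the first Il1rn start was at 6.82 over 6. The other starts of Il1rn changed by less than 1 point, from 35.5% to 36.1% and from 30.0% to 30.8%. The RNA of Il18, Il1rn and Il1a was at 11.9% to 19.4% of control in ND1 day 7 cells. The genes with all starts inside these percentiles, Il6 left out, ran from 3.41% (Il1b) to 30.3% (Nfkbia). A link of methylation and RNA was not tested, and the bisulfite libraries cannot be matched to a day.

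**Figure D5:**
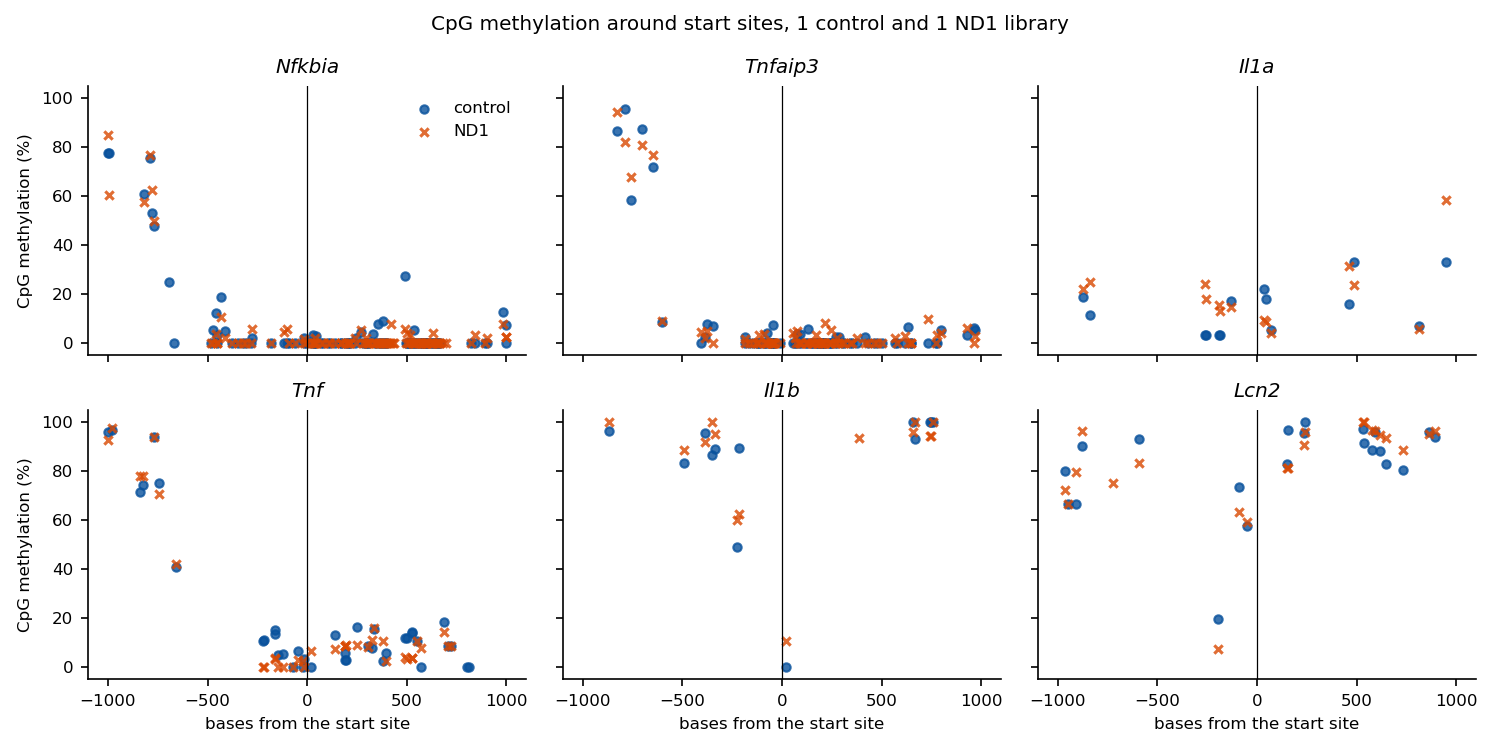
Methylation of single CpGs in percent against distance from the start site in bases (negative is upstream) for 6 genes, in 1 control library (circles) and 1 ND1 library (crosses). Nfkbia and Tnfaip3 are near 0 around the start, Tnf and Il1a are low, and most CpGs around Il1b and Lcn2 are high in both libraries, with mean levels of 83.2% and 82.7% in control.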

How the data were processed

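RNA values are FPKM per gene symbol, as the authors deposited them. Per the submitters' processing notes, TopHat, Bowtie2, Cuffdiff and Cufflinks were used on mm10, with no versions given. Bisulfite values are a methylated fraction per CpG, as deposited, without read counts, printed here as percentages. The tool behind them is not given in the sources used here, and 10 chromatin immunoprecipitation and input samples were not analysed here. FPKM tables hold no counts, so depth is known only from value spacing (tolerance 0.15 of a step).

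The 13602 genes that reached 1 FPKM in 3 or more of the 15 libraries were fitted as log2(FPKM + 1) with limma 3.58.1 in R 4.3.3, with 5 group means, a variance trend and no block. Calls needed a Benjamini-Hochberg adjusted p under 0.05 over all tested genes and a log2 change of at least 1. The script was tested on simulated data. Alternatives were a pseudocount of 0.1, a 5 FPKM filter, no filter, quantile normalization, rescaling to equal FPKM sums, no trend, the compared groups alone, a replicate block and leaving out each library. Ratios used exact permutation tests. Methylation means used 1000 bases to each side of a start, with 500, 2000 and CpGs listed in both libraries as alternatives.

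The 10 genes and all lists were chosen with earlier results of these data known. Named were all 10 genes, up to 3 called genes per list by size of change, the genes of most like pattern, and promoters with GGG and CC separated by any 5 bases, up to 5 in list order.

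Positions and promoter sequences come from RefSeq on GRCm38.p6, the build known as mm10, in which all 10 genes were matched. Only the part before each start site is printed.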

Additional observations from a re-analysis of the deposited data

Results flagged for a closer look

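The effect of ND1 against control differed between day 2 and day 7, by limma's interaction test, for 8 of the 10 genes (background 20.8% negative and 20.5% positive). The differences (day 7 effect minus day 2 effect, log2 of FPKM + 1) were -2.63 for Tnf, -2.44 for Il1rn, -2.29 for Tnfaip3, -2.11 for Lcn2, -1.98 for Il1a, -1.21 for Nfkbia, -1.02 for Il18 and 1.505 for Il6. The calls of Nfkbia (-0.775) and Il18 (-0.65) were lost after rescaling, and that of Il18 also without any 1 of 6 libraries (-0.993 to -0.96). That of Il6 combines an ND1 effect of -1.12 at day 2 with 0.38 at day 7. The latter rests on control day 7 libraries listed at 0, 0 and 0.204 FPKM. For Lcn2 the control level rose between the days, whereas for the other 6 genes with a negative value it was lower at day 7. No outlying library was looked for within groups, since each holds only 3.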

How the results depend on the processing

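Whether equal replicate numbers pair libraries is not known. Of 30 same-numbered pairs across groups, 2 correlated over 0.1 (range -0.226 to 0.161). Differently numbered pairs were not compared, so these values cannot decide it. With a replicate block the 9 counts of called members and the 90 log2 changes kept their direction and side of the threshold. Leaving out 1 library at a time kept the count of members called at 5 for ND1 at day 2, 9 at day 7, 6 for control cells between days and 9 for ND1 cells between days, with 8 to 9 for neurons against control, 4 to 6 for ND1 day 7 against neurons and 7 to 8 for the interaction. Relative to pan-myeloid markers it stayed at 0 at day 2 and 8 at day 7. Members called at day 2 numbered 3 with quantile normalization and 3 after rescaling, where Il1b was at -0.944 and -0.92. Relative to pan-myeloid markers, 1 (pseudocount 0.1) and 2 (quantile) were called at day 2, and 4 and 5 at day 7. Directions turned for Il1rn at day 2 (0.0614 quantile, 0.0848 rescaled), Nlrp3 in ND1 day 7 against neurons (-0.0358, quantile), Il1b relative to pan-myeloid markers at day 7 (-0.0802, pseudocount 0.1), Tnf relative to them at day 2 (-0.0752 quantile, and from -0.0182 to 0.089 leaving out a library, negative without control day 2 replicate 2) and the day 7 ratio of Il1rn to Il1b (-0.5372, pseudocount 1). Leaving out a library, that ratio difference ran from 0.858 to 1.16 at day 7, 0.981 to 1.04 at day 2 and 2.19 to 2.29 between control days. The interaction of Nfkbia and Il18 fell inside the fold limit after rescaling (-0.775 and -0.65). The causes were not tested.

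Over all tested genes, a pseudocount of 0.1 raised the calls from 1321 to 2524 at day 2, from 1047 to 1892 between control days, from 1840 to 2929 for ND1 day 7 against neurons, and from 2053 to 3127 relative to pan-myeloid markers at day 2. The last was 1104 with quantile normalization, and 12697 became 19345 at day 7 without a filter. Rescaling moved the median of all genes at day 7 from 0.0394 to 0.596, so that 30.5% of calls were lower in place of 48.8%. Relative to that shift the 9 called members kept their direction. Levels near or under 1 FPKM (Il6, and Il1b and Nlrp3 in ND1 day 7) are the least certain, and only 3 libraries of unstated independence support each mean.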
